A study of Mus musculus with 10 samples.

Results

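The V and J segments of the T cell receptor alpha chain (TRAV and TRAJ) and the V segments of its beta chain (TRBV) were followed in intratumoral T cells of SW1 melanomas from mice given control or L-fucose (L-fuc) water. The members were all TRAV, TRAJ and TRBV names found in the productive receptor contigs of the 5 receptor libraries. No cut on a measured level was made, but the choice was made with earlier results of these data known. There were 127 of them (63 TRAV, 43 TRAJ and 21 TRBV), out of 139 V and J names that also include 12 TRBJ segments, in a series whose expression matrices list 32285 genes. SW1 is a mouse melanoma line, and L-fuc is a dietary sugar given in the drinking water. According to the labels, C3H/HeJ females aged 4 to 6 weeks received SW1 cells under the skin of the flank, and after 10 days of growth 3 mice were taken as day 0 and the others drank control or L-fuc water for 7 or 21 days. The labels give 6 mice per arm in one protocol text and 5 in another, and a dose of 100 mM L-fuc in one and 100 nM in the other. Cells with the leukocyte marker CD45 were sorted and pooled into 1 library per condition, with 3 control pools (day 0, day 7 and day 21) and 2 L-fuc pools (day 7 and day 21). No cell is tied to a mouse, so there are no replicates and no test between conditions was possible. Every interval given here is an exact 95% interval that covers counting error only, not the spread between mice. It treats the units counted as separate draws, so it can be too narrow where 1 clone is counted more than once. An upper limit given alone for a share of 0 is instead 3 counts over the total.

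A developing T cell builds its alpha chain by joining 1 TRAV to 1 TRAJ segment and its beta chain by joining TRBV to a D and a TRBJ segment. Bases are trimmed and added at the joints, so the third complementarity-determining region (CDR3), which spans the joint and contacts the peptide, differs from clone to clone. Most T cells carry a chain pair of their own, but some lineages share an alpha chain: invariant natural killer T (iNKT) cells join TRAV11 to TRAJ18 and see lipids on CD1d, and mucosal-associated invariant T (MAIT) cells join TRAV1 to TRAJ33 and see vitamin B metabolites on MR1. Some TRBV segments are thinned out in mice whose endogenous mammary tumor viruses encode superantigens, proteins that bind a V beta whatever its CDR3.

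The alpha locus lies on chromosome 14 of the GRCm38 mouse assembly, with the TRAV segments at chr14:52427928-53876752 and the TRAJ segments downstream at chr14:54157280-54217901, and the TRBV segments lie at chr6:40891229-41558452. The sequences that best show how repeated or how private these joints were are the CDR3 coding stretches of the TRAV11-TRAJ18 chain, printed 5′ to 3′ from the conserved cysteine codon to the last CDR3 codon. The base at position 12, counted from 1 at the 5′ end, is in capitals because it alone varied among the 4 forms that encode the same 15 residues; these were read in 19, 13, 12 and 5 barcodes, in the order printed.
TRAV11-TRAJ18 form 1: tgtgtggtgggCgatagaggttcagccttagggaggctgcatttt
TRAV11-TRAJ18 form 2: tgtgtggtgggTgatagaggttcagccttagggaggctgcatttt
TRAV11-TRAJ18 form 3: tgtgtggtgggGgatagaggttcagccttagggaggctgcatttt
TRAV11-TRAJ18 form 4: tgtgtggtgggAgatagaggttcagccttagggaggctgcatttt

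For orientation, the germline pieces of the reference assembly that meet at this joint are the end of TRAV11 at chr14:53519847-53519859 (plus strand) and the start of TRAJ18 at chr14:54200777-54200811 (plus strand). The assembly comes from another strain than C3H/HeJ.
TRAV11 germline end: tgtgtggtgggcg
TRAJ18 germline start: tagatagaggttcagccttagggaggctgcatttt

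The chain of the MAIT type was rarer, and 5 of its 7 clonotypes shared the first sequence here, with 1 clonotype each for the other two.
TRAV1-TRAJ33 form 1: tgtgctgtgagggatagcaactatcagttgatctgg
TRAV1-TRAJ33 form 2: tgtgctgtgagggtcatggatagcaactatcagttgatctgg
TRAV1-TRAJ33 form 3: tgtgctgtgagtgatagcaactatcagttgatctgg

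The receptor libraries held 386 barcodes in 326 clonotypes at day 0. At day 7 there were 949 barcodes in 577 clonotypes with control and 1084 in 681 with L-fuc water, and at day 21 there were 56 in 37 and 22 in 22. Median UMIs per contig were 4 to 7, and 76.2% to 90.9% of barcodes had both chains. Every receptor barcode was present in the expression matrix of its own pool, where it was one of 1.54% to 22.4% of the barcodes. Most of these barcodes held T cell transcripts. A UMI of Cd3d, Cd3e or Cd3g was in 91.6% to 100% of them, against 3.41% to 17.0% of the other barcodes. The lowest share of receptor barcodes was that of control day 7. No doublet caller was run, and 7.80% to 9.33% of barcodes at day 0 and day 7 held 2 beta chains, with a median of 9948, 6546 and 10397 expression UMIs against 4589, 4239 and 5527 for barcodes with 1 (control day 0, control day 7 and L-fuc day 7). The macrophage genes C1qb, C1qc and Apoe summed to between 2164 and 7894 CPM (UMIs scaled to a total of 1000000) in receptor barcodes. Tumor and stroma marker genes summed to 1165 CPM in those of control day 7. They were at 385.9 CPM at L-fuc day 7 and at most 36.32 CPM in the other libraries. The Cd3 genes were lowest at control day 7, at 1101 CPM against 2039 at L-fuc day 7 and 2661 at control day 0. Neutrophil genes went the other way, at 81.53 CPM at control day 7 and 313.6 at L-fuc day 7. The other barcodes of these libraries were at 48.88 and 102 CPM of neutrophil genes. In the remaining libraries receptor barcodes were at most at 2.339 CPM, below the other barcodes. The part of these non-T cell genes in the results was not tested. Receptor barcode sequences were shared between libraries in 2 cases, neither with the same CDR3.

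Segment usage was broad, and its evenness was much alike in the 3 larger libraries. The shares of single segments differed in places, as given further below. Of the 127 segments, 117 were found at day 0, 116 (control) and 121 (L-fuc) at day 7, and 63 (control) and 40 (L-fuc) at day 21. Usage was counted as the share of clonotypes with that chain that hold the segment. The effective number of equally used segments was 40.7, 40.8 and 43.0 for TRAV, 33.0, 34.1 and 34.2 for TRAJ, and 13.8, 13.7 and 14.0 for TRBV at control day 0, control day 7 and L-fuc day 7. The 5 most used TRBV segments thus took 52.4% to 55.9% of the beta chains, and the 5 most used TRAV segments 23.1% to 24.5% of the alpha chains. The leading TRAV names by mean share over these libraries were TRAV6N-7 (5.83%), TRAV16N (5.37%), TRAV6D-6 (5.32%), TRAV13-1 (4.88%) and TRAV14N-1 (4.49%). The leading TRAJ segments were TRAJ49 (6.59%), TRAJ31 (5.50%), TRAJ40 (4.99%), TRAJ26 (4.98%) and TRAJ48 (4.96%).

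TRBV19 had the highest mean share of the beta names as deposited (13.9%), at 12.3% of beta clonotypes at control day 0 (38 of 309, 8.85% to 16.5%), 14.1% at control day 7 (74 of 526, 11.2% to 17.3%), 15.3% at L-fuc day 7 (100 of 652, 12.7% to 18.3%), 8.33% at control day 21 (3 of 36) and 27.3% at L-fuc day 21 (6 of 22, 10.7% to 50.2%). The intervals of all 5 libraries overlap. The next were the combined name TRBV12-2+TRBV13-2 (mean 12.9%), TRBV5 (10.7%), TRBV13-1 (10.7%) and TRBV20 (9.47%). At control day 0 TRBV5, in 41 clonotypes, stood above TRBV19, in 38, with overlapping intervals. The order of the leading names also depends on the combined name: counted as 1 with TRBV13-2, whose CDR1 and CDR2 it carries, it was in 44 of 309 beta clonotypes at control day 0 (14.2%), 84 of 526 at control day 7 (16.0%) and 104 of 652 at L-fuc day 7 (16.0%), above TRBV19 in each of the 3 but within overlapping intervals. This merging was chosen after seeing the data.

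**Figure D1:**
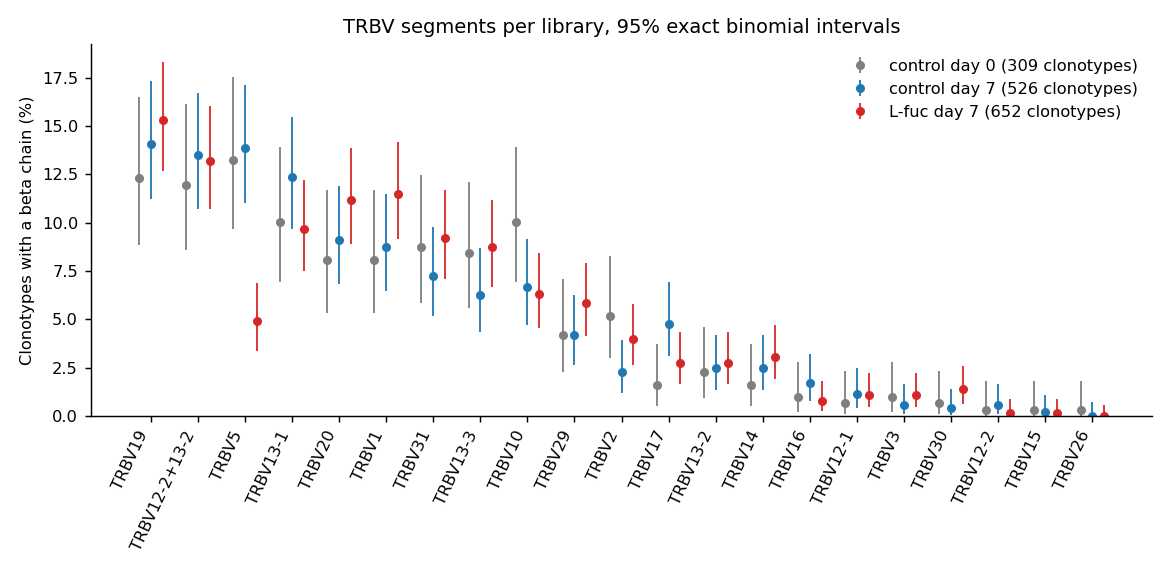
Share of clonotypes with a beta chain (%, vertical axis) for each of the 21 TRBV names (horizontal axis) in the 3 larger libraries, with exact binomial 95% intervals. TRBV5 stands at 13.3% and 13.9% in the control libraries and at 4.91% in the L-fuc library of day 7, while TRBV19 overlaps in all 3 libraries.

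Because V names come from aligning reads to a reference of another strain, they were checked against the genes themselves. The most common CDR1 and CDR2 of a name lay in the GRCm38 gene of that name for 38 of the 63 TRAV names, in another gene for 4 and in no gene for 21, TRAV1 and TRAV11 included. Most of the 38 names also matched a duplicate gene of the locus, such as TRAV7-3 and TRAV7D-3, so these regions do not settle the copy. For TRBV names 20 of 21 matched their own gene. The exception was TRBV10, whose 257 contigs carried the CDR1 and CDR2 of Trbv4. In the expression libraries the 253 barcodes with a TRBV10 call held 0 UMIs of Trbv10 and 389 of Trbv4, and 59.7% of them had a Trbv4 UMI against 0.731% of the 2051 barcodes with another TRBV call. The combined name behaved as TRBV13-2 in its sequence: 247 of its 249 contigs had the CDR1 and CDR2 of TRBV13-2 contigs and 0 those of TRBV12-2, and its 245 barcodes held 816 Trbv13-2 and 71 Trbv12-2 UMIs. It is counted with the TRBV13 family here.

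The expression libraries, which the choice of segments did not use, also held the called V genes. A UMI of the called gene was found for 89.0% of TRB calls at day 0, 55.4% (control) and 87.9% (L-fuc) at day 7, and 90.7% (control) and 91.3% (L-fuc) at day 21. The background, barcodes with another call, was 0.468% to 4.83% for TRB. For TRA calls the shares were 61.4%, 33.2%, 47.0%, 67.4% and 70.0% in the same order. Counting any D or N copy of a TRAV gene, the near-identical duplicates of the locus, and Trbv4 for TRBV10 raised them to 80.6%, 41.0%, 60.0%, 87.8% and 90.0% for TRA and 98.5%, 62.5%, 91.9%, 94.4% and 100% for TRB. The receptor barcodes of control day 7 were thus the least supported for both chains, although those with a TRB call had a median of 4534 expression UMIs, close to the 4935 of control day 0.

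The main contrast of the study, L-fuc against control at day 7, was read by a rule of size: a segment with at least 20 clonotypes in both libraries together was past 2-fold when its share differed by more than that in either direction. Of 70 segments with enough clonotypes, 13 were past 2-fold, 6 of them higher (2 TRAV and 4 TRAJ) and 7 lower (3 TRAV, 3 TRAJ and 1 TRBV) in the L-fuc library. Over all 82 V and J segments with enough clonotypes, TRBJ included, 15.9% were past 2-fold, 7.32% higher and 8.54% lower. The members make up most of these segments, so this background could not differ much from their own share. No TRBJ segment was past 2-fold. A T cell clone can appear as several clonotypes when a chain is missed in some cells. Counting each rearrangement (V, J and CDR3 nucleotides) once instead left 5 of 61 segments past 2-fold (background 6.85%), and counting barcodes gave 39 of 87 (background 41.4%). At control day 7, 61 of 432 alpha and 45 of 488 beta rearrangements were in more than 1 clonotype. At L-fuc day 7 these were 67 of 519 and 48 of 630. Intervals by clonotype treat such clonotypes as separate draws and can be too narrow. The 2 segments past 2-fold in all 3 countings, which use the same contigs, were TRBV5 and TRAJ42. They were picked by these same counts, and their intervals do not allow for that choice.

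TRBV5 made up 13.3% of beta clonotypes at control day 0 (41 of 309, 9.69% to 17.6%), 13.9% at control day 7 (73 of 526, 11.04% to 17.1%), 4.91% at L-fuc day 7 (32 of 652, 3.38% to 6.86%), 19.4% at control day 21 (7 of 36, 8.19% to 36.0%) and 9.09% at L-fuc day 21 (2 of 22, 1.12% to 29.2%). The L-fuc day 7 share lies below those of all 3 control libraries, and its interval does not meet theirs. The interval of L-fuc day 21 overlaps all of them. TRBV5 was picked out of 70 segments by its ratio in these same counts, which the intervals do not allow for. The ratio of L-fuc over control at day 7 was 0.354 (0.226 to 0.543) by clonotype, 0.439 (0.271 to 0.699) by rearrangement, with 30 of 630 against 53 of 488, and 0.341 (0.236 to 0.486) by barcode. The 30 and 53 distinct rearrangements show that many clones carried TRBV5 in both libraries. At day 21 the ratio cannot be read from 2 and 7 clonotypes.

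TRAJ42, a segment at chr14:54175773-54175836, was in 4.70% of alpha clonotypes at control day 0 (14 of 298), 4.71% at control day 7 (23 of 488, 3.01% to 6.99%), 1.59% at L-fuc day 7 (9 of 566, 0.730% to 3.00%), 6.06% at control day 21 (2 of 33) and 0 of 20 at L-fuc day 21, which allows a share of up to 15%. Its ratio at day 7 was 0.337 (0.137 to 0.757) by clonotype and 0.317 (0.122 to 0.745) by rearrangement. The lowest ratio by clonotype was that of TRAV7D-3, 7 of 566 against 19 of 488 (0.318, 0.113 to 0.789). By rearrangement TRAV7D-3 was at 7 of 519 and 12 of 432, too few in all for the rule. Its CDR1 and CDR2 also lie in Trav7-3, so they do not settle the copy. The ratio of the name TRAV7-3 by clonotype was 0.805 (0.360 to 1.79).

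On the higher side, TRAV1 was in 17 of 566 alpha clonotypes at L-fuc day 7 (3.00%) and 3 of 488 at control day 7 (0.615%), a ratio of 4.89 (1.41 to 26.0). TRAJ58 was in 20 and 4 clonotypes (ratio 4.31, 1.44 to 17.4) and TRAJ52 in 30 and 10 (ratio 2.59, 1.23 to 5.93). Each of the 3 became less separated by rearrangement: TRAV1 was at 8 of 519 against 3 of 432, TRAJ58 at 11 against 4, and TRAJ52 at 26 against 11 with a ratio of 1.97 (0.939 to 4.41). The control day 0 share of TRAJ52 was 4.03% (12 of 298), between the 2.05% of control day 7 and the 5.30% of L-fuc day 7.

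**Figure D2:**
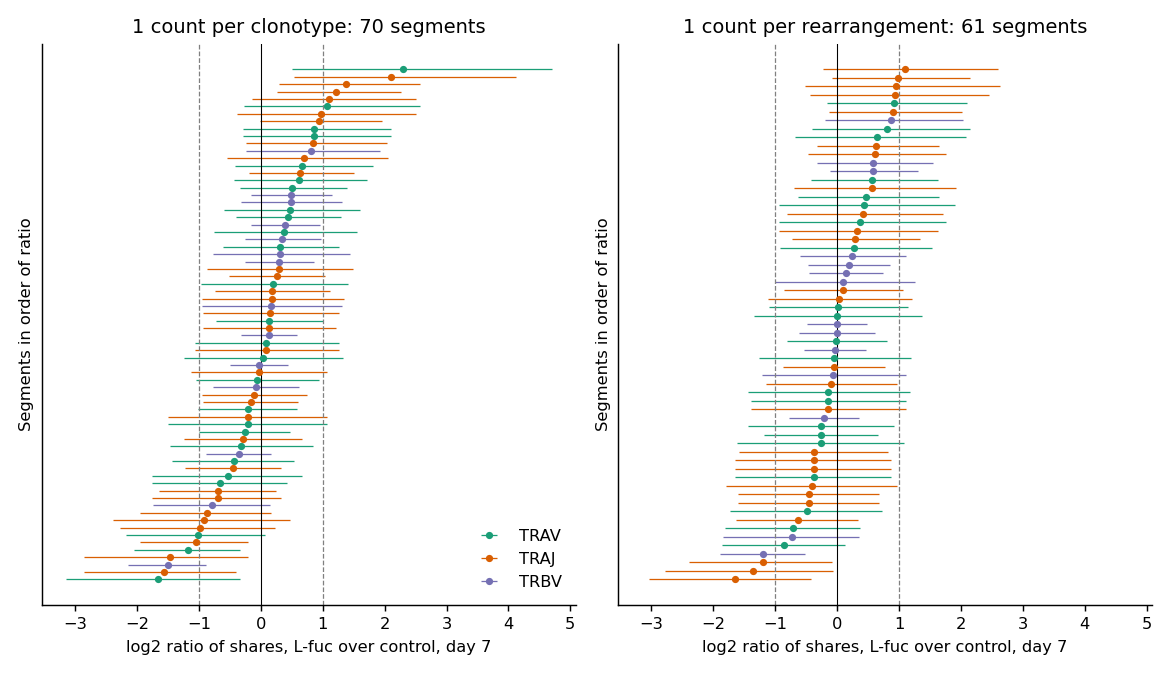
Log2 ratio of segment shares, L-fuc over control at day 7 (horizontal axis), for 70 segments counted per clonotype (left) and 61 counted per rearrangement (right), with exact conditional 95% intervals and dashed lines at 2-fold. The spread narrows from left to right, with 13 segments past 2-fold on the left and 5 on the right.

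Control day 7 was next set against control day 0, the tumors before treatment. Here 11 of 56 segments were past 2-fold by clonotype (background 16.2%), 8 of 47 by rearrangement (background 13.6%) and 23 of 73 by barcode (background 29.4%). TRAJ13, TRAJ50, TRAV8D-1, TRBV17 and TRBV2 were past it in all 3 countings. TRAJ13 was in 34 of 488 alpha clonotypes at control day 7 and 5 of 298 at day 0 (ratio 4.15, 1.62 to 13.6), and at 3.36% (19 of 566) it lay between them at L-fuc day 7. By rearrangement TRAJ13 was at 16 of 432 against 5 of 330, a ratio of 2.44 (0.856 to 8.53), whose interval includes 1. TRAJ50 went the other way, with 15 of 488 against 24 of 298 (ratio 0.382, 0.186 to 0.758), and L-fuc day 7, at 3.36% (19 of 566), was close to control day 7. Its ratio by rearrangement was 0.299 (0.122 to 0.671).

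TRAV7D-2 was in 0 of 298 alpha clonotypes at control day 0, which allows a share of up to 1.01%, in 21 of 488 at control day 7 (4.30%, 2.68% to 6.50%) and in 18 of 566 at L-fuc day 7 (3.18%, 1.90% to 4.98%). Its share at control day 7 was 4.28-fold the floor of 3 counts at day 0, leaving out the counting error of control day 7. Its clonotypes came from 11 distinct rearrangements at control day 7 and 16 at L-fuc day 7. TRAV11, the iNKT segment, was in 2 clonotypes at day 0 and 21 at control day 7 (ratio 6.41, 1.57 to 56.4). The lowest ratios were those of TRAV12-3 (12 of 488 against 20 of 298, 0.366, 0.163 to 0.787), TRAJ50, and TRAV8D-1 (10 against 14, 0.436, 0.173 to 1.06). TRAV8D-1 cannot be told apart from an equal share by this interval, nor can TRBV2 (0.468, 0.196 to 1.07) or TRAV12-3 (0.509, 0.224 to 1.12) by rearrangement. By rearrangement TRAV7D-2 and TRAV11 were too few for the rule.

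At day 21 the control library held only 33 alpha and 36 beta clonotypes and the L-fuc library 20 and 22, and no segment reached 20 clonotypes between them, so these were not compared by the rule. Control day 21 over control day 7 had 7 of 33 segments past 2-fold (background 20.5%). TRBV31 was in 8 of 36 beta clonotypes at control day 21 (22.2%, 10.1% to 39.2%) and in 38 of 526 at control day 7 (7.22%, 5.16% to 9.78%), a ratio of 3.08 (1.24 to 6.69), with 13.6% (3 of 22) at L-fuc day 21. It was the only segment of these 7 whose interval left out 1. The combined TRBV12-2+TRBV13-2 was in 1 of 36 against 71 of 526 (ratio 0.206, 0.00514 to 1.18), TRBV13-3 in 1 against 33, TRAV13-1 in 1 of 33 against 37 of 488, TRAV16N in 5 against 29 (2.55, 0.771 to 6.66) and TRAV4-3 in 4 against 21 (2.82, 0.703 to 8.35).

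The invariant TRAV11-TRAJ18 pair, whose 4 CDR3 forms are printed above, was the TRAV-TRAJ pair with the most clonotypes in the 3 larger libraries. It was in 0 of 298 alpha clonotypes at control day 0 (up to 1.01%), 21 of 488 at control day 7 (4.30%, 2.68% to 6.50%), 30 of 566 at L-fuc day 7 (5.30%, 3.60% to 7.48%), 0 of 33 at control day 21 (up to 9.09%) and 0 of 20 at L-fuc day 21 (up to 15%). These limits for counts of 0 are 3 counts over the total, and the exact upper limits were 1.23%, 10.6% and 16.8%. The pair was thus detected at day 7 alone, where the 2 conditions overlapped (ratio 1.23, 0.682 to 2.26). The share at control day 7 was 4.28-fold the floor of 3 counts at day 0. This leaves out the counting error of control day 7. The same figure was 3.01-fold by barcode and 1.53-fold by rearrangement. By rearrangement the exact intervals of control day 7 and day 0 overlapped (0.511% to 3.00% against 0% to 1.11%). The ratio of L-fuc over control at day 7 was 1.29 (0.716 to 2.38) by barcode and 0.555 (0.115 to 2.34) by rearrangement. By rearrangement the repeated CDR3 forms leave 4 and 6 chains. For the day 21 libraries the shares seen at day 7 are below the limit that a count of 0 allows.

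All 21 TRAV11 clonotypes of control day 7 and 30 of the 33 of L-fuc day 7 used TRAJ18, where the product of the shares of TRAV11 and TRAJ18 would give 1.12 and 2.10 clonotypes with both. Forms 1 to 4 were read in 8, 6, 2 and 3 barcodes at control day 7 and in 11, 7, 10 and 2 at L-fuc day 7. All 4 forms occurred in both libraries. The 2 remaining control clonotypes had another codon at this place. Since 49 of the 51 barcodes shared 1 amino acid sequence and each barcode was a clonotype of its own, the diversity of these cells lay in the beta chain, with 21 distinct TRB CDR3 sequences at control day 7 and 34 at L-fuc day 7, where some clonotypes held 2 beta chains.

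The beta partners known for mouse iNKT cells are TRBV13, TRBV29 and TRBV1. TRBV13 segments were in 16 of the 21 control clonotypes with a beta chain (76.2%, 52.8% to 91.8%) and in 20 of the 29 L-fuc clonotypes (69.0%, 49.2% to 84.7%). TRBV29 was in 0 of 21 at control day 7 and 8 of 29 at L-fuc day 7 (27.6%, 12.7% to 47.2%), while TRBV1 was in 2 at each. Across all beta clonotypes TRBV13 segments made up 33.7% at control day 7 and 34.2% at L-fuc day 7, and TRBV29 4.18% and 5.83%. With 21 and 29 clonotypes from unidentified mice, the TRBV29 count is a description of these 2 libraries.

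The expression libraries, which the pair call did not use, were read for genes of iNKT and other cells in the barcodes with the pair. Zbtb16, the transcription factor of iNKT cells, was at 52.2 CPM (14.2 to 134, 4 UMIs) in the 21 barcodes of control day 7 against 2.13 CPM in the 927 other receptor barcodes without an invariant pair, and at 33.0 CPM (15.1 to 62.6) against 3.16 CPM at L-fuc day 7. Other genes of NKT and NK cells did not show such a gap in both libraries. Klrb1c, which encodes NK1.1, was at 39.2 CPM (8.07 to 114, 3 UMIs) against 5.24 at control day 7 while at L-fuc day 7, with 3 UMIs (2.27 to 32.1 CPM), it was 1.11 times the 9.91 CPM of the others. Cxcr6, a chemokine receptor, was at 104 against 117 CPM and 158 against 222, and Il2rb, a subunit of the IL-2 and IL-15 receptors, at 261 against 160 and 253 against 259. The neutrophil genes S100a8 and S100a9 were at 626 and 509 CPM in the control day 7 barcodes with the pair, against 27.5 and 40.3 in the others, all of it from 1 of the 21 barcodes. At L-fuc day 7 they were at 99.0 and 150 against 130 and 186 CPM, again from 1 barcode. Without those barcodes, left out after seeing the data, Zbtb16 was at 56.5 CPM (15.4 to 145) at control day 7 and 33.8 (15.5 to 64.2) at L-fuc day 7. Neither CD4 nor CD8 transcripts were found in 18 of 21 (85.7%) and 23 of 30 (76.7%) barcodes, against 38.5% and 28.4% of all receptor barcodes of those libraries. Ctla4, an inhibitory receptor of activated and regulatory T cells, had 1 UMI in control and 0 in L-fuc cells with the pair, where the other receptor barcodes were at 76.3 and 205 CPM. The barcodes with the pair had a median depth of 2821 (control) and 5024 UMIs (L-fuc), against 4543 and 5876 in the others. General T cell genes were lower with the pair at L-fuc day 7, with Cd3e at 440 against 748 CPM and Trac at 91.6 against 200. At control day 7 Cd3e was at 470 against 410 CPM and Trac at 78.3 against 108. The part of depth and of these levels in the missing CD4, CD8 and Ctla4 transcripts was not tested.

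The MAIT-type pair TRAV1-TRAJ33 was in 0 of 298 alpha clonotypes at day 0, in 1 of 488 (0.205%) with control and 6 of 566 (1.06%, 0.390% to 2.29%) with L-fuc water at day 7, and in 0 of 33 and 0 of 20 at day 21. The ratio of L-fuc over control at day 7 was 5.17 with an interval from 0.628 to 238, so no difference could be told from so few clonotypes. The 6 clonotypes of L-fuc day 7 were 6 of the 17 with TRAV1. None of the 7 barcodes had CD4 or CD8 transcripts alone, and 1 had both.

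**Figure D3:**
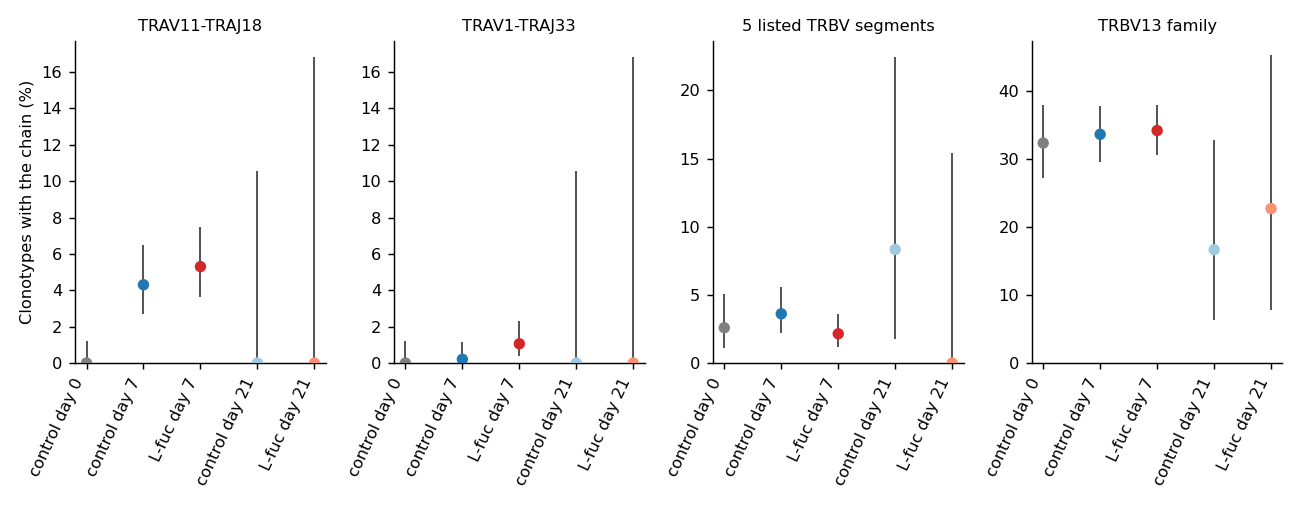
Share of clonotypes with the chain (%, vertical axes on separate scales) in the 5 libraries for the TRAV11-TRAJ18 and TRAV1-TRAJ33 pairs, the 5 TRBV segments listed as superantigen targets and the TRBV13 family, with exact binomial 95% intervals. TRAV11-TRAJ18 is at 0% outside day 7 and at 4.30% and 5.30% at day 7, with wide intervals at day 21.

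TRBV12-1, TRBV12-2, TRBV15, TRBV16 and TRBV26 are textbook targets of endogenous superantigens in mice that express the class II molecule I-E. Together they were in 8 of 309 beta clonotypes at control day 0 (2.59%, 1.12% to 5.04%), 19 of 526 at control day 7 (3.61%, 2.19% to 5.58%), 14 of 652 at L-fuc day 7 (2.15%, 1.18% to 3.58%), 3 of 36 at control day 21 (8.33%, 1.75% to 22.5%) and 0 of 22 at L-fuc day 21. All 5 were rare in every larger library, where none passed the 1.71% of TRBV16 at control day 7 (9 of 526), and TRBV26 was found in 1 clonotype at control day 0 only. Low shares were not particular to the list: TRBV3 (up to 1.07%) and TRBV30 (up to 1.38%), which are not on it, were rare in these libraries too. The day 7 ratio of the 5 listed segments together was 0.594 (0.276 to 1.25). The TRBV13 family, which belongs to the most used mouse beta segments, stood at 32.4% of beta clonotypes at day 0, 33.7% and 34.2% at day 7 (control and L-fuc) and 16.7% and 22.7% at day 21, and its day 7 ratio was 1.02 (0.831 to 1.24).

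The segments were also read separately in CD4 and CD8 T cells. A barcode was called CD8 with a UMI of Cd8a or Cd8b1 and none of Cd4, and CD4 in the reverse case, so that a call can rest on 1 UMI. CD8 barcodes were 56.0% of those called at control day 0 (49.4% to 62.5%), 74.4% at control day 7 (70.4% to 78.1%) and 51.4% at L-fuc day 7 (47.6% to 55.1%), and 44.7% and 47.4% at day 21. These intervals treat barcodes of 1 clone as separate draws, so large clones weigh on the shares. Called clonotypes numbered 96 CD8 and 92 CD4 at control day 0, 188 and 112 at control day 7, and 187 and 224 at L-fuc day 7. Of 55 segments with at least 20 called clonotypes, 14 had a higher share among CD8 clonotypes in all 3 larger libraries and 11 a higher share among CD4 clonotypes. Over all 67 V and J segments, TRBJ included, the shares were 22.4% and 19.4%, and of the 12 TRBJ segments alone 1 and 2 did so. The members make up most of that background, and their counts describe agreement in direction, without a test.

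TRBV5 was the segment most tilted to CD4 on average, at 3.30% of CD8 against 17.2% of CD4 clonotypes at control day 0, 16.2% against 20.4% at control day 7 and 1.68% against 8.02% at L-fuc day 7. Against control day 7, its share at L-fuc day 7 was lower in both compartments, with 3 CD8 clonotypes against 28 and 17 CD4 clonotypes against 21. Among CD8 clonotypes control day 0 also held only 3 with TRBV5, so control day 7 stood above both. Without a call were 277 clonotypes at control day 7 and 270 at L-fuc day 7. Whether the mix of CD4 and CD8 cells bears on the TRBV5 share was not tested. TRBV20, TRBV13-1 and TRAV6N-7 were higher in CD4 clonotypes in all 3 libraries too, TRBV20 with 18.9% against 9.50% at L-fuc day 7. Among CD8 clonotypes, TRBV29 was higher in each library (8.79% against 2.30%, 6.94% against 4.85% and 7.82% against 2.36%), as were TRAV14N-1, TRBV13-3, TRAV13-1, TRAV6D-6 and TRBV17. TRBV19 was not uniform: 25.7% of CD8 and 8.49% of CD4 clonotypes at L-fuc day 7, but 9.25% of CD8 and 12.6% of CD4 at control day 7. These shares count clonotypes, not rearrangements, so a clone split into several clonotypes counts more than once. At L-fuc day 7 the TRAV6D-6-TRAJ31 chain of the largest clonotype, which carried TRBV19, was in 7 clonotypes. At control day 7 the TRAV13D-3-TRAJ47 chain of the largest clonotype, which also carried TRAV13-1, was in 12. The weight of such repeated chains in the CD8 shares was not tested.

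**Figure D4:**
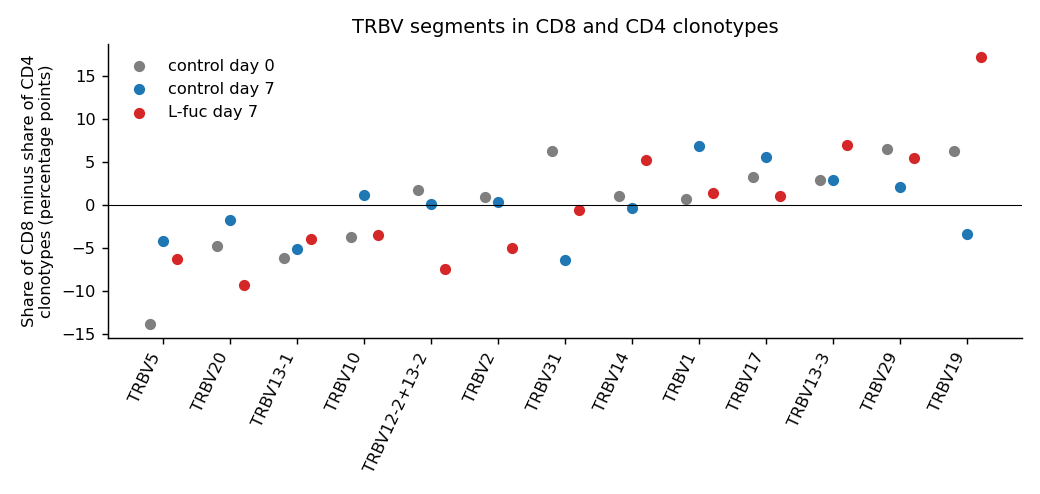
Share among CD8 clonotypes minus share among CD4 clonotypes (percentage points, vertical axis) for 13 TRBV segments (horizontal axis) in the 3 larger libraries, above 0 where the segment is more used by CD8 cells. TRBV5 lies below 0 and TRBV29 above 0 in all 3 libraries, and TRBV19 at L-fuc day 7 is the highest point.

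CDR3 length was compared between libraries and between segments. Alpha CDR3s averaged 13.7 ± 1.41 residues at control day 0 (SD over 353 chains), 13.6 ± 1.39 at control day 7, 13.7 ± 1.41 at L-fuc day 7, 13.8 ± 1.41 at control day 21 and 12.9 ± 1.50 at L-fuc day 21 (20 chains). Beta CDR3s averaged 14.0 ± 1.45, 14.0 ± 1.32, 13.9 ± 1.45, 14.3 ± 1.49 and 13.7 ± 1.47. The means of the 3 larger libraries lay within 13.6 to 13.7 residues for alpha and 13.9 to 14.0 for beta chains. The alpha mean of L-fuc day 21 was the lowest, with a standard error over its 20 chains of 0.335 against 0.0539 to 0.0752 in the larger libraries, and no test was made with 1 library per condition. Between segments, over distinct rearrangements TRAJ43 gave 12.2 ± 0.799 residues and TRAJ53 15.1 ± 1.13, TRAV8D-1 12.5 ± 1.45 and TRAV16N 14.9 ± 1.21, and TRBV20 13.4 ± 1.30 and TRBV2 14.8 ± 1.46. The TRAJ43 and TRAJ53 means kept this order in each of the 3 larger libraries, at 12.4 and 15.0, 12.4 and 15.4, and 12.1 and 15.0 residues.

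**Figure D5:**
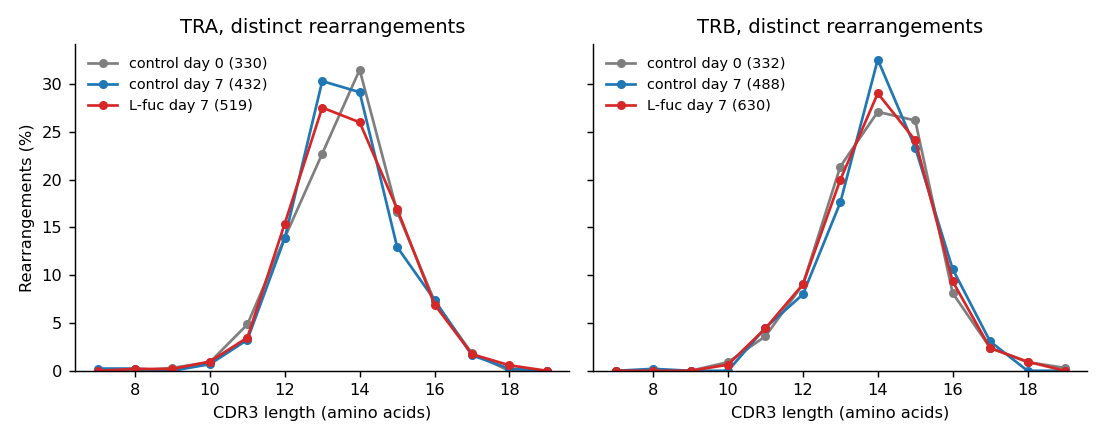
Share of distinct rearrangements (%, vertical axis) by CDR3 length in amino acids (horizontal axis) for alpha (left) and beta chains (right) in the 3 larger libraries. The curves peak at 13 or 14 residues for alpha and 14 for beta chains and lie close together.

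Pairs of TRAV and TRAJ were mostly rare. Of 2709 possible pairs, 800 were found in the 3 larger libraries, 453 of them in 1 clonotype, and 10 in at least 10 clonotypes. After TRAV11-TRAJ18 with 51 came TRAV6D-6-TRAJ31 with 20, TRAV13-1-TRAJ49 with 14 and TRAV6-1-TRAJ30 with 14. TRAV13D-3-TRAJ47, with 12 clonotypes, came from 1 CDR3 nucleotide sequence, whereas TRAV6-1-TRAJ30 came from 10. Position in the locus, taken from the named genes, was related to the pairing only weakly. By CDR1 and CDR2, 21 of the 63 TRAV names matched no reference gene and 4 matched another gene. Most of the other 38 matched more than 1 copy, and copies can lie far apart. Trav7-4 starts at chr14:53461099 and Trav7d-4 at chr14:52769753. A wrong name gives a chain a wrong V start, and the effect of this on the values here was not tested. Across 1327 distinct rearrangements of all libraries, without the iNKT pair, Spearman's rho between the start of the V and the start of the J gene was -0.15, and it was between -0.11 and -0.31 in the single libraries. These rearrangements come from 5 pools of mice and are not independent. When the chains were split by V start into 4 groups of 331 or 332, 34.3% (29.2% to 39.7%) of the group farthest from the J segments used TRAJ40 or a higher number, the V-proximal end of the J cluster, against 55.1% (49.6% to 60.6%) of the nearest group. The groups in between were at 48.8% and 39.0%, so the share did not climb evenly.

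The largest clonotypes of control day 0, control day 7, L-fuc day 7 and control day 21 had different V segments. The largest clonotype was TRAV12-3-TRAJ6 with TRBV3-TRBJ2-1 at control day 0 (8 barcodes, 2.07%, 0.899% to 4.04%). At control day 7 it carried 2 alpha chains, TRAV13-1-TRAJ49 and TRAV13D-3-TRAJ47, with TRBV10-TRBJ2-4 (60 barcodes, 6.32%, 4.86% to 8.06%). At L-fuc day 7 it was TRAV6D-6-TRAJ31 with TRBV19-TRBJ2-7 (25 barcodes, 2.31%, 1.50% to 3.39%), and at control day 21 TRBV30-TRBJ2-4 with no alpha chain (7 barcodes, 12.5%). All 22 clonotypes of L-fuc day 21 were of 1 barcode. Clonotypes can be parts of larger clones. At L-fuc day 7 a TRBV10-TRBJ2-7 chain was in 9 clonotypes with 28 barcodes. The TRBV19 CDR3 of the largest clonotype there was in 34 barcodes by amino acid sequence. The TRBV10 chain of the largest control day 7 clonotype was in 16 clonotypes with 127 barcodes and its TRAV13D-3 chain in 12 with 91 barcodes. Whether these were parts of 1 larger clone was not tested, and no doublet caller was run. TRAV13-1 was at 16.2% of alpha barcodes at control day 7 but 7.58% of clonotypes and 5.56% of rearrangements. The name TRBV10 is the deposited one, for contigs with the CDR1 and CDR2 of Trbv4. The CDR3 of the 3 chains of this control day 7 clonotype were as follows. None contains a position in capitals because 1 form of each was read.
TRAV13-1-TRAJ49: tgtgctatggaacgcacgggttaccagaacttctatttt
TRAV13D-3-TRAJ47: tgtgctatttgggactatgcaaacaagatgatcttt
TRBV10-TRBJ2-4: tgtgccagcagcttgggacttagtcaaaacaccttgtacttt

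Of 1631 distinct clonotype amino acid sequences, 4 were in more than 1 library, where they made up 9 of the 1643 clonotypes, and 2 of the 4 had both chains. By nucleotide sequence 1 was shared. The 2 without a beta chain were TRAV6D-6-TRAJ31, in 3 libraries, and TRAV6N-7-TRAJ50, in 2. The clonotype with TRAV5N-4-TRAJ32 and TRBV12-2+TRBV13-2-TRBJ2-1 was in 1 barcode at control day 7 and 1 at L-fuc day 7. The one with TRAV6D-6-TRAJ31 and TRBV19-TRBJ2-7 was the largest of L-fuc day 7, with 25 barcodes, and was in 1 barcode at control day 0. Its chains are printed because the amino acids were the same and the nucleotides were not, with the differing base in capitals, at position 18 of the alpha and position 15 of the beta stretch. For each chain the first form was that of L-fuc day 7 and the second that of control day 0.
TRAV6D-6-TRAJ31, L-fuc day 7: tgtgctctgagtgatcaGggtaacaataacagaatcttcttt
TRAV6D-6-TRAJ31, control day 0: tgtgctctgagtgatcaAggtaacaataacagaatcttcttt
TRBV19-TRBJ2-7, L-fuc day 7: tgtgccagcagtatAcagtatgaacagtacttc
TRBV19-TRBJ2-7, control day 0: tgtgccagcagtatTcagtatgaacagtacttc

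Control day 0 and L-fuc day 7 thus each held their own rearrangement of the same receptor. The alpha amino acid sequence was in 2 barcodes at control day 0, 9 at control day 7 and 32 at L-fuc day 7. The 9 and 32 barcodes of day 7 all carried the same alpha nucleotide form, the one printed for L-fuc day 7. Of the 30 L-fuc barcodes with a beta chain, 28 had this TRBV19-TRBJ2-7 beta. At control day 7, 6 of 8 had TRBV29, and 1 had a TRBV19-TRBJ2-7 chain that differed by 1 residue. In the expression library 25 of the 28 barcodes at L-fuc day 7 were CD8 and 0 were CD4. The single barcodes with this receptor, or with the chain 1 residue apart, at control day 0 and control day 7 were CD8 as well.

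Single chains were shared more often, and alpha more than beta chains. Of 1256 distinct alpha CDR3 amino acid sequences, 39 (3.11%) were in more than 1 library, 35 in 2, 2 in 3 and 2 in 4, and 14 of the 39 had a nucleotide sequence in common. Of 1471 beta CDR3 sequences, 18 (1.22%) were shared, all in 2 libraries, 5 with a nucleotide sequence in common. The alpha chains in 4 libraries were TRAV7-4 or TRAV7D-4 with TRAJ11, in 6 barcodes at day 0, 1 and 22 at day 7 (control and L-fuc) and 0 and 2 at day 21, and TRAV14N-1-TRAJ45, in 2 at day 0, 2 and 0 at day 7 and 2 and 1 at day 21. The forms of both are printed to show that each was encoded in more than 1 way, with the varying base in capitals.
TRAJ11 chain form 1: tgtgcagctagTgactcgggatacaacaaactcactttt
TRAJ11 chain form 2: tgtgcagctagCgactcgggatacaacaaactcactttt
TRAV14N-1-TRAJ45 form 1: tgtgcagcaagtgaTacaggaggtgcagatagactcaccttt
TRAV14N-1-TRAJ45 form 2: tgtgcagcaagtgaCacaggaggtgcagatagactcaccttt

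A TRAV6-1-TRAJ30 chain found in 3 libraries is printed because it too was encoded in several ways. Its amino acid sequence was in 2, 3 and 4 barcodes at day 0, control day 7 and L-fuc day 7. Its 9 barcodes held 5 nucleotide forms, which differ at positions 12 and 15, in capitals.
TRAV6-1-TRAJ30 form 1: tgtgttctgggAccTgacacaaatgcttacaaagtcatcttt
TRAV6-1-TRAJ30 form 2: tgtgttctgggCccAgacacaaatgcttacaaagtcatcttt
TRAV6-1-TRAJ30 form 3: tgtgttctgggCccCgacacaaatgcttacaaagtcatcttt
TRAV6-1-TRAJ30 form 4: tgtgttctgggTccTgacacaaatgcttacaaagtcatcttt
TRAV6-1-TRAJ30 form 5: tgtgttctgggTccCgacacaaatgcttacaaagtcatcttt

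Shared alpha chains were 13.7 ± 1.12 residues long over 103 rearrangements and the others 13.6 ± 1.43 over 1234, and shared beta chains 13.8 ± 1.10 against 14.0 ± 1.43. The control day 7 and L-fuc day 7 libraries, which hold the most chains, shared 18 alpha and 12 beta CDR3 sequences, the most of any pair of libraries. No barcode with the same CDR3 nucleotides was found in both libraries of any pair.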

How the data were processed

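The authors ran 10x Genomics expression and receptor libraries of the same pools. Per the labels' processing notes Cell Ranger 3.0 and Seurat 4.0 were used with mm10, while the matrix headers name Cell Ranger 7.1.0. The authors deposited UMI and read counts for each receptor contig, counts of barcodes per clonotype with their fraction of the library, and UMI counts per gene and barcode, all without normalization. Deposited contigs were all productive (5025), and depth was 518 to 14511 contig UMIs per library. The consensus files were not used, nor was any cell filter or doublet caller applied.

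Segments were counted once per clonotype, as numbered by Cell Ranger, once per barcode and once per rearrangement. Shares carry exact Clopper-Pearson 95% intervals and ratios of shares exact conditional intervals. Intervals by barcode treat the cells of 1 clone as separate draws, and intervals by clonotype do so for clonotypes that share a rearrangement. A share of 0 is limited by 3 counts. Gene positions came from GENCODE vM21 on GRCm38, in which all 139 names were matched. CDR3 sequences were read from the contig files. CPM are UMIs scaled to a total of 1000000 over the barcodes named. Python 3.11.15, numpy 2.4.6, pandas 2.3.3, scipy 1.17.1 and matplotlib 3.10.9 were used. The ratios of shares and their intervals were tested on simulated TRBV counts, while the counting and the intervals of shares were not. The simulated clonotypes were drawn independently, so clonotypes that share a rearrangement were not covered.

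The segments named were the 5 most used TRAV, TRAJ and TRBV over the day 0 and day 7 libraries, the invariant segments, their beta partners, the superantigen list, and the 3 highest and 3 lowest ratios of each comparison, with shared clonotypes of both chains and the largest of each library. Any other segment was named with its values known. The members and lists were chosen with earlier results of these data known. Alternatives changed the contig and barcode filters, the unit counted, the minimum of 20 clonotypes and the naming of V genes.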

Additional observations from a re-analysis of the deposited data

How the results depend on the processing

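No paired analysis was possible because each condition is 1 pooled library and no result comes from a test. Some settings changed no result enough to count as moved. These were leaving out barcodes in more than 1 library, leaving out the largest clonotype, and at most 2 TRA and 1 TRB per barcode. The same held with the D and N copies merged or with barcodes with a Cd3 UMI only, both chosen after seeing the data. Smaller changes were seen. Shared clonotypes numbered 4 in the main counting, 3 without the largest clonotype, 3 with a Cd3 UMI required and 5 with at least 3 UMIs per contig. Keeping only barcodes in the expression matrix removed none, so it could move nothing. Shared barcode sequences numbered 2, and without the largest clonotype the others that share its chains at control day 7 stayed in, so these settings removed few clonotypes.

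The number of segments past 2-fold moved with the unit counted and with the minimum number of clonotypes. Per barcode it was 39 for L-fuc over control at day 7, 23 for control day 7 over day 0 and 11 for control day 21 over day 7. With at least 10 clonotypes it was 24, 18 and 15. Per rearrangement, a counting chosen after seeing the data, it was 5 for the first and 4 for the last, and with contigs of at least 3 UMIs it was 7 for control day 7 over day 0. The TRAV11-TRAJ18 share at control day 7 and L-fuc day 7 was 2.56% and 3.30% per barcode, 2.21% and 2.72% with at least 3 UMIs per contig, and 1.39% and 0.771% per rearrangement, the last of which collapses chains that repeat a sequence.

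The TRBV13 share was 26.9% at control day 7 per barcode and 30.1% at L-fuc day 7 with 1 contig per chain and barcode. With the combined name counted with neither segment it was 20.7%, 20.5% and 21.0% at day 0, at control day 7 and at L-fuc day 7, and with that name counted as TRBV12-2 the superantigen list was at 14.6%, 16.9% and 15.3%, both chosen after seeing the data. Shared clonotypes numbered 2 with both chains required, for clonotypes or for barcodes, and 1 by nucleotides. Support for V calls by any copy of the gene, chosen after seeing the data, was 80.6%, 41.0%, 60.0%, 87.8% and 90.0% for TRA and 98.5%, 62.5%, 91.9% and 100% for TRB without control day 21, which did not move. Requiring the called gene to have the most UMIs gave 48.5% and 41.0% for TRA and 82.5% and 81.8% for TRB at control day 0 and L-fuc day 7. The day 21 libraries, with 56 and 22 barcodes, limit every comparison that uses them, and no interval holds the spread between mice.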

Other observations

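The deposited clonotype tables carry a column for evidence of an iNKT receptor, which is filled where the genes of the alpha or of the beta chain match. It was filled for 45 of 326 clonotypes at control day 0 (13.8%), 98 of 577 at control day 7 (17.0%) and 145 of 681 at L-fuc day 7 (21.3%). An entry for the alpha genes stood in 0, 21 and 30 of these, the same numbers as for the TRAV11-TRAJ18 pair, and the other entries were for the beta genes alone. The column for MAIT receptors was filled for 30.5% of the clonotypes at control day 7 and 35.0% at L-fuc day 7, with an entry for the alpha genes in 1 and 6 clonotypes. A filled cell in either column is therefore mostly an entry for a beta chain.

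Some TRAV names had no UMI of the gene of that name in any barcode of the expression libraries. TRAV6D-6 was called in 127 barcodes and TRAV12N-2 in 80, and both genes were at 0 UMIs. Over all barcodes of the expression libraries, the 3 genes of the TRAV6D-6 copy group held 47 UMIs in all, and the 3 of the TRAV12N-2 group 44.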
